A study of Mus musculus with 4 samples.

Results

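Collagen gene expression was followed in the mouse autopod, the end of the limb bud from which wrist, ankle and digits arise, at E11.25. Members are the genes whose symbol has the form of a collagen chain (Col1a1, Col4a2 and so on) in the platform annotation. They came to 42 genes on 82 probe sets, out of 18193 genes on the array. Each gene was read from its brightest probe set by mean log2 signal over the 4 arrays. That choice used the signals themselves and is no result. The 2 Hox13dKO samples came from C57BL/6 embryos homozygous both for a Hoxa13 null allele and for the HoxD deletion that removes Hoxd11, Hoxd12 and Hoxd13. The 2 wild-type samples came from C57BL/6 embryos of the same stage. Pieces matching the Hoxd13 expression domain were cut from fore- and hindlimb buds, so a value averages both limbs and all cells of the piece. Titles call the samples biological replicates, and the sources used here do not say how many embryos a sample holds. In such bulk RNA, more cells of a type and more transcript per cell cannot be told apart.

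Collagens are secreted or membrane proteins whose chains wind around each other into a rigid helix of repeated glycine-containing units. Fibrillar collagens, led by types I, II and III, form the fibres of bone, skin, tendon and cartilage. Type IV collagen forms the sheet under epithelia and around vessels, type VI forms beaded filaments around cells, FACIT collagens coat fibrils, and transmembrane collagens span the cell membrane. At this stage the limb bud is mostly loose mesenchyme under an ectoderm, and the design text places the early wrist and ankle condensations here. Type II collagen is the hallmark of those condensations, while types I and III mark loose and fibrous connective tissue.

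The levels of the targeted genes were lower in Hox13dKO, as labelled, but not all fell to the floor. Hoxd13, which with Hoxa13 patterns the autopod, read 5.79 and 9.58 signal units (MAS5 signal, linear scale) on the Hox13dKO arrays, both under the floor of 14.1, and 14540 and 16116 on the wild-type arrays. Hoxa13 read 52.4 and 58.0 against 842 and 1463, Hoxd12 read 5.23 and 33.5 against 1208 and 2171, and Hoxd11 read 348 and 454 against 1831 and 1745. The source of the signal left for Hoxa13 and Hoxd11 was not tested. Limb mesenchyme was present on all 4 arrays, with Prrx1, a mesenchymal homeobox gene, between 7008 and 11938. Array medians lay between 65.8 and 85.7 signal units. The ratio of 5′ to 3′ actin signal, a sign of RNA integrity, was 0.473 in wild type replicate 1 and 0.728 to 0.771 on the other arrays. The same ratio for Gapdh showed no such dip, at 1.23 in wild type replicate 1 and 1.16 to 1.25 on the other arrays.

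More transcript of type I, III, VI and XXV collagen was read in the Hox13dKO autopod, while for the brightest probe sets of the 4 tested type IV chains the arrays of the groups overlapped. Col1a2, Col3a1, Col6a3 and Col25a1 rose past an adjusted p of 0.05 (limma, Benjamini-Hochberg over 27022 probe sets), by 1.95- to 3.30-fold. They are 4 of the 34 collagen genes bright enough to test, 11.8%, and 0 were called lower. Over all 13072 genes tested 0.161% were called higher and 0.145% lower. At an unadjusted p under 0.05, 14 of the 34 were higher and 0 lower, against 4.26% and 2.99% of all genes. The median log2 difference, Hox13dKO minus wild type, was 0.36 over the 34 genes and -0.03 over all genes tested. Differences were above 0 in 26 of the 34 genes (45.8% of all genes) and above 0.5 in 14 (8.67% of all genes), and below -0.5 in 1 (8.74% of all genes). Both Hox13dKO arrays lay above both wild-type arrays for 17 of the 34 and below both for 2, where 17.1% and 20.1% of all genes did so. These counts describe the tested members. Collagens were taken up with earlier results of these arrays known. The count of calls was 0 without Hox13dKO replicate 1 (11 at an unadjusted p under 0.05) and 0 without Hox13dKO replicate 2 (12 at that level). Leaving out wild type replicate 1 gave 6 and leaving out wild type replicate 2 gave 8. It was also 0 without the filter on dim probe sets or without limma's intensity trend, with 12 at that level in each.

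**Figure D1:**
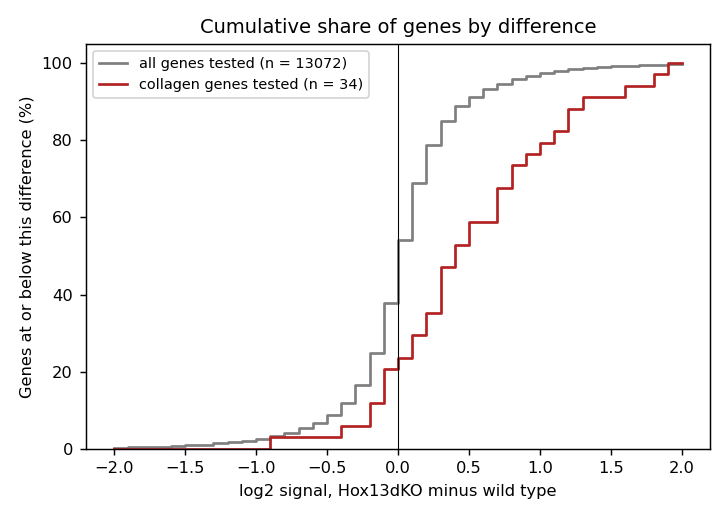
Share of genes, in percent, whose log2 difference (Hox13dKO minus wild type) is at or below the value on the horizontal axis, in steps of 0.1, for the 34 tested collagen genes and all 13072 genes tested. The collagen curve lies to the right over most of the range, with medians of 0.36 and -0.03.

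Mesenchymal marker lists give the tissue context of the collagens. Of 6 proximal limb mesenchyme markers Hoxa11, Hoxd9 and Shox2 rose, where 0.161% of all genes were called higher, and the median was 1.35. Meis1 differed by 0.39 ± 0.35 (SE), with overlapping arrays. The summed signal was 23988 and 23400 in Hox13dKO against 8068 and 6240 in wild type. Of this sum Hoxd9 gave 9282 and 8878 against 2147 and 1516, and Hoxa11 5490 and 5628 against 1568 and 1492. These genes lie in the Hox clusters that carry the mutant alleles, and a direct effect of the alleles on them was not tested. Of 8 distal mesenchyme markers 0 passed in limma. At an unadjusted p under 0.05, 1 was higher, Prrx1, and 1 lower, Lhx2, against 4.26% and 2.99% of all genes. Only Prrx1 had a difference above 0, and both Hox13dKO arrays lay below both wild-type arrays for 4 (20.1% of all genes). The median was -0.22, with summed signals of 35878 and 32368 against 36253 and 35945. Of 6 tested cartilage condensation markers other than collagens 0 passed and 0 had an unadjusted p under 0.05, with a median of 0.08. Sox9, the regulator of chondrocyte fate that drives Col2a1, read 2536 and 1834 against 1873 and 2389 (0.03 ± 0.20 SE). Macrophage markers had a median of 0.33 over 5 and erythroid markers 0.23 over 4, with 0 past the threshold in limma for each (0 and 1, Alas2, at an unadjusted p under 0.05). The part of proximal mesenchyme in the collagen differences was not tested.

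Among fibrillar collagens, the chains of types I and III had the largest differences. Col1a2, which encodes the second chain of type I collagen, the main protein of bone and tendon, read 12596 and 10973 in Hox13dKO (replicates 1 and 2) and 5251 and 5843 in wild type. Both Hox13dKO arrays stood well above both wild-type arrays, with means of 11784 ± 1147 and 5547 ± 419 (SD, n = 2 each). The fitted log2 difference was 1.09 ± 0.14 (SE), 2.12-fold, with an adjusted p of 0.0348 in limma. Col3a1, which encodes the only chain of type III collagen, abundant in embryonic mesenchyme and vessel walls, read 7453 and 8325 against 4233 and 3873. The groups again did not overlap, with means of 7889 ± 616 and 4053 ± 254, and the log2 difference of 0.96 ± 0.13 corresponded to 1.95-fold (limma adjusted p = 0.0457). After median centring of the arrays Col3a1 no longer passed (limma adjusted p = 0.0589).

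Col1a1, the partner chain of Col1a2 in type I collagen, read 1722 and 1333 in Hox13dKO against 666 and 689 in wild type. Its log2 difference was as large as that of Col1a2, 1.16 ± 0.18 (SE), but it did not pass (limma adjusted p = 0.0717). It did pass with 1 probe set per gene in the fit (limma adjusted p = 0.0273), but not without the filter (0.371) or the intensity trend (0.597). With an array left out its difference ranged from 0.98 to 1.35. Col1a1, Col1a2 and Col3a1 each had another tested probe set, and these differed in the same direction, by 0.77, 0.98 and 0.75 on the log2 scale, with both Hox13dKO arrays above both wild-type arrays for each. None of the 3 passed. With the mean over a gene's tested probe sets Col1a2 (limma adjusted p = 0.00981, log2 difference 1.03) and Col3a1 (0.0409, 0.86) still passed.

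The other fibrillar chains differed less. Col2a1, the main collagen of cartilage, read 3706 and 3376 in Hox13dKO against 2412 and 2213 in wild type. The groups did not overlap, but the log2 difference of 0.61 ± 0.14 (SE, 1.53-fold) did not pass (limma adjusted p = 0.217). The chains of type V collagen, which sets the diameter of type I fibrils, split. Col5a2 differed by 0.50 ± 0.14 and Col5a1 by 0.44 ± 0.17, both without overlap of the arrays, whereas Col5a3 was the lowest of all tested collagens, at -0.92 ± 0.50. Col5a3 was dim, at 47.1 and 55.7 in Hox13dKO against 93.1 and 101 in wild type, so its difference is imprecise (95% interval -2.07 to 0.24). Other probe sets of Col5a1 differed by 0.10 and 0.13 and another of Col5a2 by 0.10, with overlapping arrays, so the size of the type V difference depends on the probe set. Col11a1 and Col11a2, chains of the minor cartilage collagen type XI, differed by 0.34 ± 0.19 and 0.64 ± 0.63. Col27a1, also a cartilage collagen, differed by -0.22 ± 0.21, with both Hox13dKO arrays below both wild-type arrays at 475 and 494 against 503 and 632. Its other probe set differed by -0.55, again with both Hox13dKO arrays below, and did not pass. Of 10 tested fibrillar genes 2 rose (0.161% of all genes), 7 had both Hox13dKO arrays on top (17.1%), and 2 had both below (20.1%). The median was 0.56.

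For type VI collagen, 1 of 3 tested chains rose (0.161% of all genes) and both Hox13dKO arrays were on top for all 3 (17.1% of all genes). Col6a3, the largest chain of its beaded filaments, read 1074 and 864 in Hox13dKO against 330 and 346 in wild type, means of 969 ± 148 and 338 ± 11.5 (SD, n = 2 each). It rose by 1.51 ± 0.20 on the log2 scale (SE), 2.85-fold (limma adjusted p = 0.0404). Col6a1, one of its partner chains, read 469 and 558 against 226 and 248, a log2 difference of 1.11 ± 0.23 that did not pass (limma adjusted p = 0.191). With an array left out the Col6a1 difference ranged from 0.98 to 1.24. Col6a2, the other partner chain, read 868 and 849 against 496 and 526, a log2 difference of 0.75 ± 0.17 (limma adjusted p = 0.256). A dimmer Col6a2 probe set, of the design class that can bind other transcripts, read 507 and 588 against 413 and 604, with overlapping arrays and a difference of 0.13. The 3 chains had a median of 1.11, and for each brightest probe set the groups did not overlap. Col6a4 and Col6a5, chains related to Col6a3, were too dim to test.

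**Figure D2:**
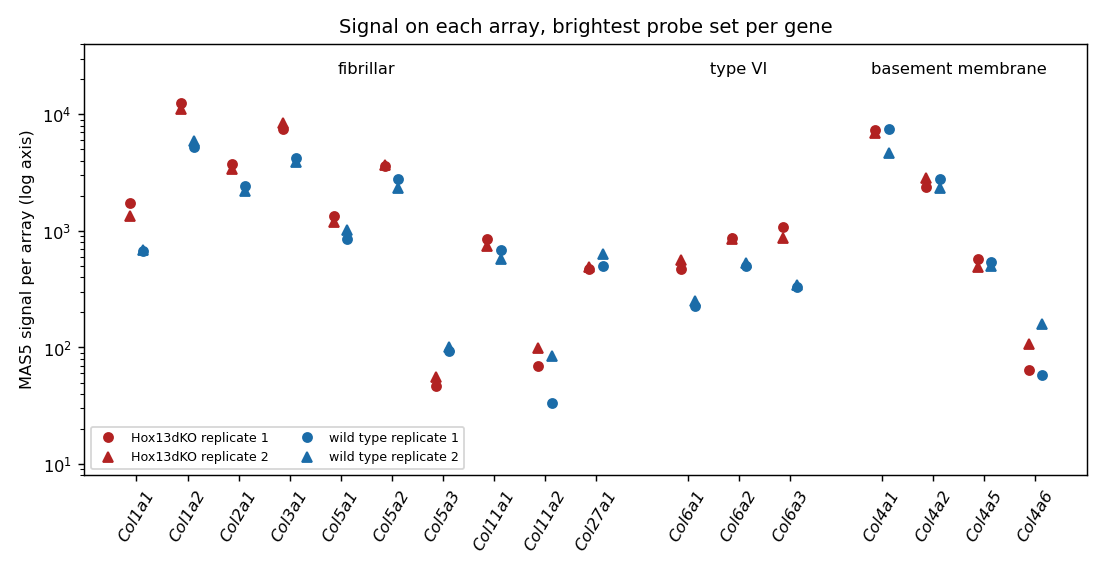
MAS5 signal on a log axis for the tested fibrillar, type VI and basement membrane collagen genes, with 1 point per array (red for Hox13dKO, blue for wild type, circles for replicate 1, triangles for replicate 2). Levels of different genes cannot be compared because each has its own probes. The red points of Col1a1, Col1a2, Col3a1 and the 3 type VI genes lie clear of the blue ones, while those of Col4a1, Col4a2, Col4a5 and Col4a6 overlap them.

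Type IV chains, which build basement membranes, gave no such separation by their brightest probe sets, and other probe sets of Col4a1 and Col4a6 did. Col4a1 read 7313 and 6913 in Hox13dKO against 7453 and 4632 in wild type, and Col4a2, its partner in the common type IV heterotrimer, 2364 and 2819 against 2769 and 2351. The arrays of the groups overlapped for both. Their log2 differences were 0.28 ± 0.21 (SE) and 0.02 ± 0.16, with 95% intervals of -0.21 to 0.76 and -0.34 to 0.37. The interval of Col4a2 leaves out a change as large as that fitted for the type I, III or VI genes that rose. Another Col4a1 probe set differed by 0.38 without overlap (95% interval 0.02 to 0.74). Its unadjusted p in limma was 0.0406, and it did not pass (limma adjusted p = 0.757). Col4a5, an X-linked chain found with Col4a6 in some basement membranes, read 571 and 487 against 542 and 500 (0.02 ± 0.20). Col4a6 read 63.6 and 108 against 57.8 and 158 (-0.20 ± 0.60), and another of its probe sets, dimmer still, read 65.6 and 71.0 against 25.1 and 26.9. There the groups did not overlap, and the difference of 1.39 ± 0.67 did not pass (limma adjusted p = 0.849). Col4a3 and Col4a4, chains of kidney and lung basement membranes, were too dim to test. By brightest probe set, 0 of 4 tested genes passed in limma, 0 had an unadjusted p under 0.05, and the median was 0.02. The multiplexins Col15a1 and Col18a1, which sit at the edge of basement membranes, differed by -0.20 ± 0.31 and 0.24 ± 0.16, both with overlapping arrays. Col18a1, the source of endostatin, read 2595 and 2956 against 2606 and 2110, and its other probe set differed by 0.45 without overlap.

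Markers of the cells that lay down type IV collagen were set beside it. Of 8 endothelial markers 0 passed in limma and 2 were higher at an unadjusted p under 0.05 (4.26% of all genes). They were Cdh5, a junction protein of vessels (0.77 ± 0.22 SE), and Kdr, the main VEGF receptor (0.75 ± 0.26). The summed signal of the 8 was 3562 and 4455 in Hox13dKO against 3045 and 3486 in wild type, with a median log2 difference of 0.20. Of 8 ectodermal markers 0 passed and 1 was lower at that level (2.99% of all genes), Krt8, a simple epithelial keratin (-0.61 ± 0.21). Differences were above 0 in 5 of the 8 (45.8% of all genes), and the median was 0.20. Both Hox13dKO arrays lay above both wild-type arrays for 3 (17.1% of all genes) and below both for 2 (20.1% of all genes). The summed signal of the 8 was 8396 and 10476 in Hox13dKO against 8768 and 7954 in wild type. The part of these cells in the type IV values was not tested.

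FACIT collagens gave no calls, and their largest differences were those of Col12a1 and Col16a1. Col12a1, which bridges fibrils in tendon and periosteum, read 198 and 206 in Hox13dKO against 51.7 and 136 in wild type, a log2 difference of 1.27 ± 0.50 (SE; 95% interval 0.12 to 2.41). A second Col12a1 probe set read 282 and 187 against 82.1 and 50.8, a difference of 1.83 ± 0.43. Neither passed in limma (adjusted p = 0.725 and 0.265), although the groups did not overlap in either, and the first passed without wild type replicate 2 (limma adjusted p = 0.0267, log2 difference 1.96). Without wild type replicate 1 its difference was 0.57 (limma adjusted p = 0.890). Col16a1, found in loose connective tissue and cartilage, read 378 and 309 against 207 and 215 (0.69 ± 0.26; limma adjusted p = 0.679). None of the type IX chains, which decorate cartilage fibrils, had an unadjusted p under 0.05. Col9a1 read 10628 and 9176 against 8286 and 9138 (0.18 ± 0.14), Col9a2 121 and 142 against 102 and 131 (0.19 ± 0.38), and Col9a3 183 and 241 against 249 and 231 (-0.19 ± 0.29). Other probe sets of Col9a1 and Col9a3 differed by -0.01 and 0.24, opposite in sign to the brightest. Col19a1, a rare basement membrane zone collagen, read 111 and 179 against 123 and 111 (0.27 ± 0.40), and another of its probe sets differed by -0.12. Col22a1, found at tissue junctions, differed by -0.13 ± 0.45. Of 7 tested FACIT genes 0 passed in limma and 2 were higher at an unadjusted p under 0.05 (4.26% of all genes). The median was 0.19, or 0.07 without Hox13dKO replicate 2 and 0.30 with replicate 1 of that group left out.

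Among transmembrane collagens, Col25a1 stood apart from the rest. This membrane-bound collagen is shed into the extracellular space and is known from muscle precursors, where it is needed for motor axons to enter muscle. It read 1618 and 1052 in Hox13dKO against 417 and 376 in wild type, means of 1335 ± 400 and 396 ± 29.3 (SD, n = 2 each). It rose by 1.72 ± 0.23 on the log2 scale (SE), 3.30-fold (limma adjusted p = 0.0435). A dimmer probe set read 90.1 and 153 against 19.4 and 81.0 and differed by 1.57 ± 0.75, without overlap and not past the threshold. With the mean over both probe sets Col25a1 did not pass (limma adjusted p = 0.0772, log2 difference 1.64). Col17a1, a hemidesmosome collagen of skin, read 223 and 221 against 168 and 108 (0.72 ± 0.35). Col13a1, a collagen of cell adhesions and neuromuscular junctions, read 91.8 and 165 against 99.3 and 90.1 (0.38 ± 0.45). Col23a1, a membrane collagen that can be shed, read 244 and 392 against 356 and 289 (-0.05 ± 0.30), and 2 other probe sets of it differed by 0.38 and 1.05.

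Muscle markers were read beside Col25a1, and most but not all were higher in Hox13dKO. Of 8, Actc1, the actin of embryonic muscle, rose past the threshold (0.161% of all genes). At an unadjusted p under 0.05, 5 including Actc1 were higher (4.26% of all genes), and the median was 1.27. The signal of Actc1 was 880 and 2252 in Hox13dKO against 116 and 92.7 in wild type, and Myog, the myogenin gene, 222 and 424 against 49.3 and 10.7. Pax3, the marker of migrating muscle precursors on the list, was dim and read 9.66 and 57.2 against 42.4 and 94.6, with overlapping arrays and a difference of -1.16 ± 0.88 (SE). Their summed signal was 1743 and 3906 in Hox13dKO against 588 and 558 in wild type. Hox13dKO replicate 2 had the higher muscle signal of the pair, the lower Col25a1 signal by the brightest probe set and the higher by the dimmer one. The part of muscle cells in the Col25a1 value was not tested. Nerve and Schwann markers went the other way, with 3 of 4 below both wild-type arrays (20.1% of all genes) and a median of -0.79. Of these 0 passed in limma, and 2 were lower at an unadjusted p under 0.05 (2.99% of all genes), Tubb3 and Stmn2.

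Of the remaining collagens, Col8a2, a short-chain network collagen known from the cornea, read 217 and 213 in Hox13dKO against 42.7 and 77.9 in wild type. Its log2 difference of 1.90 ± 0.44 (SE) was the largest fitted for any collagen and did not pass (limma adjusted p = 0.258). It passed after median centring (limma adjusted p = 0.00671), but not without the filter (0.594) or without the intensity trend (0.597). With an array left out its difference ranged from 1.46 to 2.33, and its wild-type signals are dim. Col8a1, which can pair with Col8a2, read 129 and 196 against 191 and 236 (-0.42 ± 0.34), and another of its probe sets, at 136 and 163 against 72.2 and 156, differed by 0.48. Col26a1, a secreted protein with short collagen stretches, read 2113 and 2614 against 1589 and 1131 (0.81 ± 0.20, limma adjusted p = 0.287). With an array left out its difference ranged from 0.57 to 1.05. Col7a1, the anchoring fibril collagen of skin, read 149 and 213 against 89.7 and 240 (0.28 ± 0.49), with overlapping arrays.

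**Figure D3:**
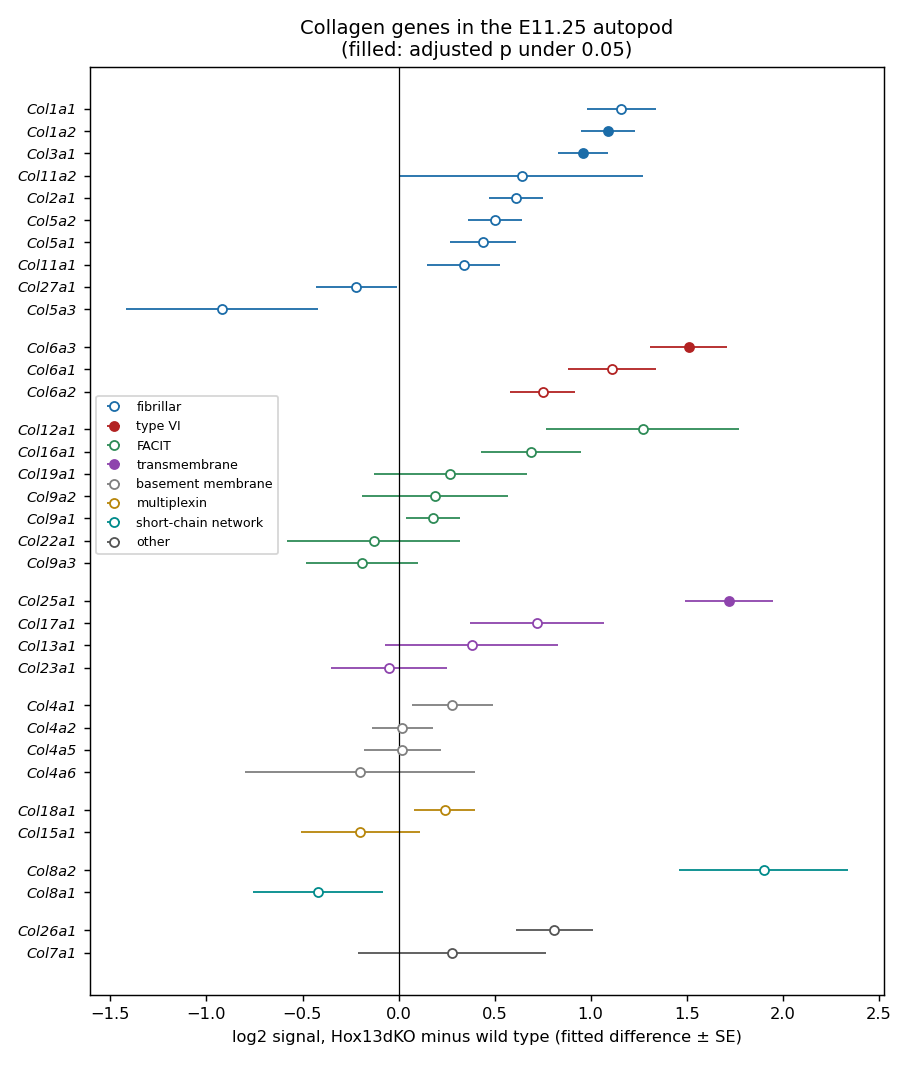
Fitted log2 difference, Hox13dKO minus wild type, with its standard error, for the 34 tested collagen genes grouped by class, 2 arrays per group. Filled points are Col1a2, Col3a1, Col6a3 and Col25a1, which passed an adjusted p of 0.05. Type VI genes lie between 0.75 and 1.51 and type IV genes between -0.20 and 0.28.

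The 8 collagens left out of the test were Col4a3, Col4a4, Col6a4, Col6a5, Col10a1, Col14a1, Col20a1 and Col24a1, whose mean log2 signals were under the 40th percentile, a geometric mean of 39.6 units. Just outside lay Col20a1 at 34.2 and Col14a1 at 32.2, and just inside Col11a2 at 66.1 and Col5a3 at 70.4. Col10a1, the collagen of hypertrophic cartilage, read between 2.28 and 7.27, under the floor of 14.1 on all 4 arrays. All 34 tested genes had a geometric mean of at least 39.6 units in both groups, so none entered through Hox13dKO alone. Among the 19 tested genes with another tested probe set, all others agreed in direction for 13. The exceptions were Col4a6, Col8a1, Col9a1, Col9a3, Col19a1 and Col23a1. Of these 21 other probe sets 0 passed in limma.

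The promoter bases just before the annotated start of the 4 genes that rose are shown because these genes differed in the same direction. They come from RefSeq (GRCm38.p6), which held a window for 33 of the 42 genes. Each line runs 5′ to 3′ on the gene's strand over the 150 bases before the start, and capitals mark a match on either strand. The motifs searched were TATAAA (the TATA box), CCAAT (the box bound by NF-Y), GGGCGG (letters bound by Sp1), and TCGTAAA (bound by HOX13 proteins) as well as CAATAAA (bound by the same family). None holds another, but CCAAT and CAATAAA can share bases. Col1a2 lies at chr6:4505468-4505617 (+), Col3a1 at chr1:45311388-45311537 (+), Col6a3 at chr1:90843972-90844121 (-) and Col25a1 at chr3:130180695-130180844 (+).
Col1a2: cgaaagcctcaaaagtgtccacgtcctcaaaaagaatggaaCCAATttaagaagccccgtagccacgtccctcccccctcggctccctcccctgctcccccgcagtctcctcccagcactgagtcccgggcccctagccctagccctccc
Col3a1: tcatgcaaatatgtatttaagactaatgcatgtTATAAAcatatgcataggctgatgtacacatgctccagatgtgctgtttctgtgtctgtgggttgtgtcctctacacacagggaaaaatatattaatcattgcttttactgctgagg
Col6a3: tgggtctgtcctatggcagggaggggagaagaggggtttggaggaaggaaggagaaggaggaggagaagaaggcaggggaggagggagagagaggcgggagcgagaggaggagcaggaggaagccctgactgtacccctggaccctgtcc
Col25a1: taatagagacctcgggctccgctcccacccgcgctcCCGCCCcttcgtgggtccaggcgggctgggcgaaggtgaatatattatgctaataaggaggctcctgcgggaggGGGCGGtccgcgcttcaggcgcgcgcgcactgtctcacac

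Col1a2 carries CCAAT from 109 to 105 bases before the start, and Col3a1 carries TATAAA from 117 to 112 bases before it. Col25a1 carries GGGCGG from 40 to 35 bases before the start and, on the other strand, from 114 to 109. Col6a3 carries none of the 5 in these bases. G and C make up 37.3% of the bases shown for Col3a1 and 62.7% to 66.0% for the other three. Over windows of 300 bases (250 before and 50 after the start) GGGCGG occurred in 22 of 36 collagen windows, 61.1%, against 35.7% of all 32851 windows, CCAAT in 36.1% against 37.4% and TATAAA in 13.9% against 13.6%. TCGTAAA occurred in 0 of the 36 and in 0.597% of all, and CAATAAA in 1 of the 36, that of Col6a4, and in 4.60% of all. These are matches of letters in a short window and show no binding.

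Several collagen genes lie next to each other in the order of protein-coding genes, and their differences are given pair by pair. Col3a1 and Col5a2 differed by 0.96 and 0.50 on the log2 scale, and Col6a1 and Col6a2 by 1.11 and 0.75. Col4a1 and Col4a2, which start from a shared region and run in opposite directions, differed by 0.28 and 0.02. Col4a5 and Col4a6, arranged in the same way, differed by 0.02 and -0.20, and Col9a1 and Col19a1 by 0.18 and 0.27. Col1a1 and Col1a2, whose chains join in 1 protein, lie on different chromosomes and differed by 1.16 and 1.09.

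Genes that make, link, bind or cut collagen gave no calls. Of 39 tested 0 passed in limma, and the median was 0.10. At an unadjusted p under 0.05, 5 were higher and 0 lower, against 4.26% and 2.99% of all genes. For chain modification, P4ha1, the catalytic subunit of prolyl 4-hydroxylase that stabilises the collagen helix, read 1283 and 1644 in Hox13dKO against 644 and 660 in wild type, without overlap (1.16 ± 0.18 SE; limma adjusted p = 0.0719). P4ha2, its sister subunit, read 435 and 776 against 392 and 272 (0.83 ± 0.32). Plod1, a lysyl hydroxylase, read 802 and 793 against 482 and 528 (0.66 ± 0.18; limma adjusted p = 0.373). Serpinh1, the collagen chaperone HSP47, differed by 0.23 ± 0.13, and P4hb, the common subunit of the enzyme, by 0.09 ± 0.12. The 17 genes of this step had a median of 0.20.

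Export and procollagen trimming genes had a median of 0.01 over 9 genes, with Sec23a, a coat protein of the vesicles that carry procollagen, at -0.27 ± 0.14 (SE), Pcolce, the procollagen C-proteinase enhancer, at -0.18 ± 0.15, and Pcolce2, its relative, at -0.23 ± 0.25. Of 4 lysyl oxidase genes, whose enzymes cross-link fibrils, 3 had both Hox13dKO arrays on top, as 17.1% of all genes did. Loxl3 read 379 and 364 against 174 and 283 (0.74 ± 0.30), Loxl1 1254 and 981 against 670 and 929 (0.49 ± 0.21), and Lox 82.2 and 142 against 35.9 and 77.4 (1.04 ± 0.59). Among receptors, Ddr1, a collagen-binding kinase of epithelia, differed by 0.43 ± 0.15, Itga1, a collagen-binding integrin, by 1.06 ± 0.55, and Itgb1, the beta chain that pairs with Itga1, by 0.18 ± 0.17, with a median of 0.18 over 7. The tested matrix proteases were Mmp14 (0.20 ± 0.20) and Mmp2 (-0.09 ± 0.16), while Mmp8, Mmp9 and Mmp13, the other collagen- and gelatin-cutting enzymes listed, were too dim to test.

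**Figure D4:**
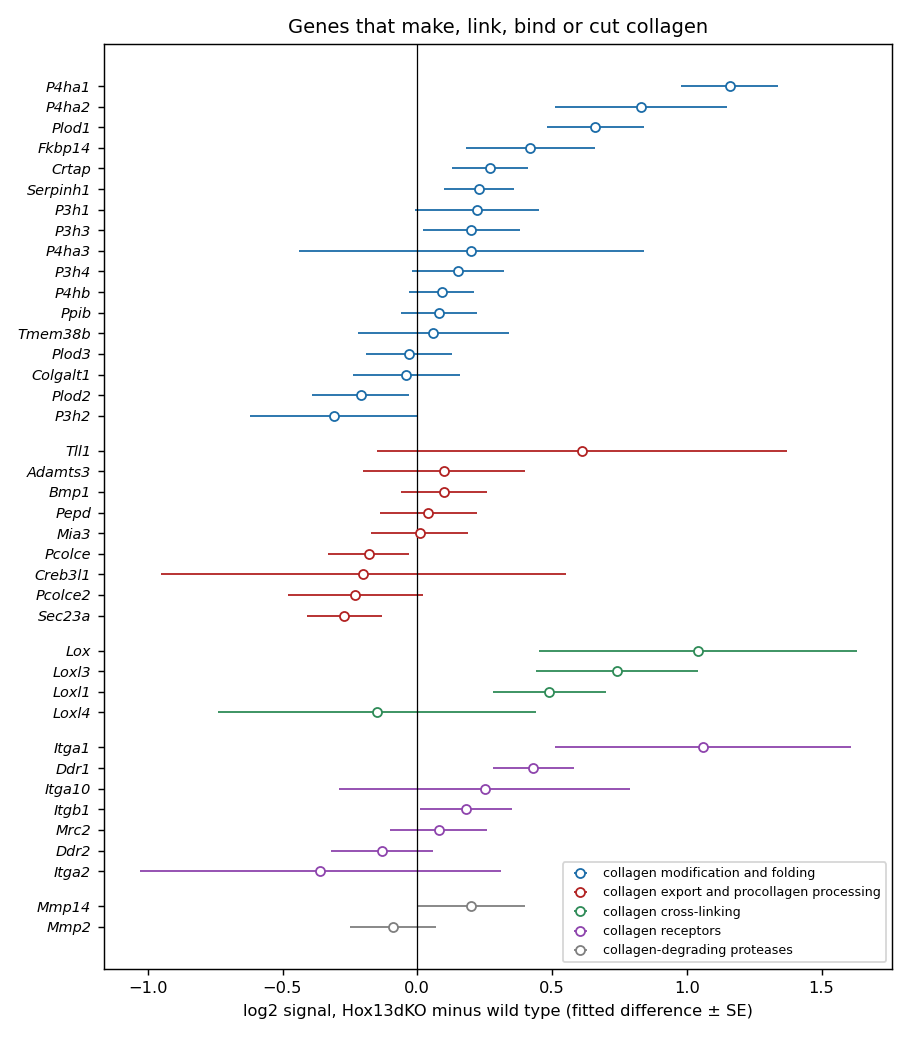
Fitted log2 difference, Hox13dKO minus wild type, with its standard error, for the 39 tested genes that act on collagen, grouped by step, 2 arrays per group. Open points mark genes that did not pass, which here is all 39, and P4ha1 has the highest difference, 1.16.

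**Figure D5:**
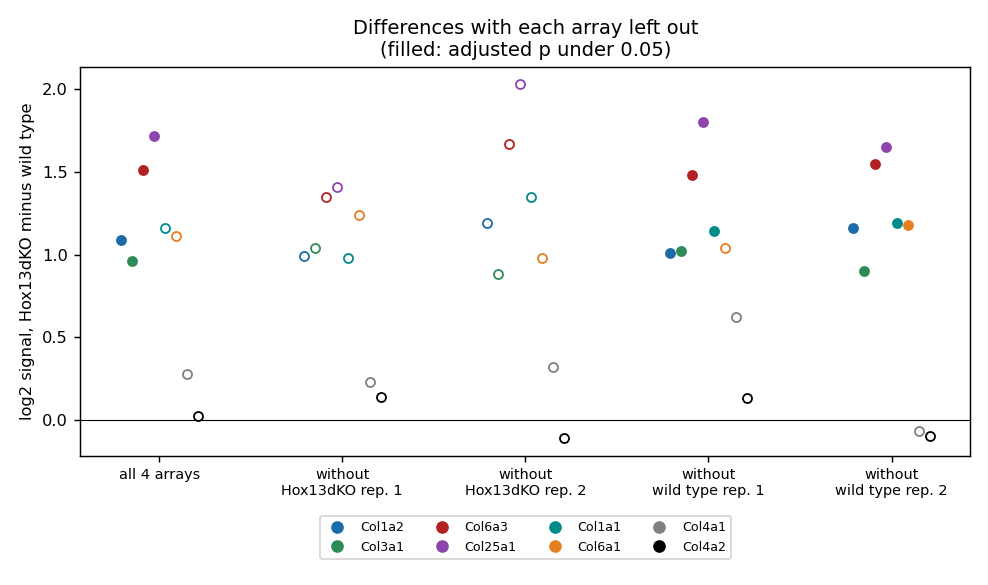
Fitted log2 difference, Hox13dKO minus wild type, for 8 collagen genes with all 4 arrays and with each array left out, filled where the adjusted p is under 0.05. Col25a1 ranges from 1.41 to 2.03 and Col1a2 from 0.99 to 1.19, both without a call when either Hox13dKO array is missing, and Col4a1 and Col4a2 stay between -0.11 and 0.62.

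The size of the differences moved less than the calls when an array was left out. With each array removed in turn Col1a2 ranged from 0.99 to 1.19 on the log2 scale, Col3a1 from 0.88 to 1.04, Col6a3 from 1.35 to 1.67 and Col25a1 from 1.41 to 2.03. Without Hox13dKO replicate 1 the limma adjusted p of these 4 lay between 0.202 and 0.361, and without Hox13dKO replicate 2 between 0.0974 and 0.363. With 1 array left in a group, its spread is borrowed from the opposite group.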

How the data were processed

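Biotin-labelled cRNA of 2 Hox13dKO and 2 wild-type samples was hybridised to 1 Affymetrix array each. The values are the intensity per probe set deposited by the authors, on a linear scale and made with MAS5 per the submitters' processing notes. MAS5 subtracts background and scales each array, and detection calls were not used here. Of 45101 probe sets 34958 had 1 gene symbol, 932 several and 9211 none in the platform annotation, and all 42 collagen symbols matched the RefSeq gene table. The 64 control probe sets were left out. Signals under the 20th percentile (14.1) were raised to it, log2 was taken, and probe sets with a mean log2 signal at or above the 40th percentile were tested with limma 3.58.1 in R 4.3.3 (lmFit, eBayes with trend, two-sided, Benjamini-Hochberg over 27022 probe sets, threshold 0.05). Differences are Hox13dKO minus wild type, with 2 residual and 6.05 prior degrees of freedom. The steps were also run on simulated arrays, drawn from the means of these arrays and the spreads limma fitted with its trend. That run therefore cannot judge the choice of trend or filter. The number of arrays limits precision. Each p-value sets a difference against a moderated spread. In it the prior, shared across probe sets of like signal, weighs more than the spread between these samples for the probe set itself. Array values are given by rule for called members and the lowest p in each class (up to 4), and for further members beyond the rule. The members, lists and tests were chosen with earlier results of these data known. List genes named are those past the threshold and the lowest p (up to 3), and others were named after their values were seen. Alternatives covered normalization, floor, filter, variance model, replicate block, probe set choice and each array left out.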

Additional observations from a re-analysis of the deposited data

How the results depend on the processing

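Of the 4 calls, all 4 were kept with quantile normalization, no floor, a pseudocount of 16, a stricter filter at the 60th percentile, robust eBayes, 1 probe set per gene and without cross-hybridising probe sets, and 3 after median centring and when the probe sets of a gene were averaged. The count was 0 with no filter and 0 without the intensity trend, and ranged from 0 to 8 with an array left out. The replicate numbers are not stated to pair the samples. Deviations of same-numbered arrays correlated at 0.2, and with the replicate block 9 collagen genes passed, the 4 and Col1a1, Col2a1, Col6a1, Col8a2 and Col26a1. The median over all collagens was 0.44 with the stricter filter and 0.35 to 0.52 with an array left out. Class medians were, for fibrillar genes, 0.59 after median centring, 0.49 with the pseudocount, 0.46 with the mean over probe sets and 0.51 to 0.56 with an array left out. For basement membrane genes they were 0.19 with the mean over probe sets and -0.05 to 0.16 with an array left out, for type VI genes 0.98 to 1.24 and for FACIT genes 0.07 to 0.30 with an array left out. The ranges of the other class medians were 0.34 to 0.76 (transmembrane), -0.17 to 0.21 (multiplexin), 0.45 to 1.03 (short-chain) and 0.31 to 0.78 (other collagens), and the FACIT median was 0.09 with the mean over probe sets. With the stricter filter the short-chain median was -0.42, since Col8a1 alone remained. Signs turned only in genes that did not pass. With an array left out the ranges were -0.07 to 0.62 for Col4a1, -0.11 to 0.14 for Col4a2, -0.10 to 0.13 for Col4a5, -0.92 to 0.52 for Col4a6, -0.43 to 0.99 for Col7a1, -0.39 to 0.01 for Col9a3, -0.03 to 1.31 for Col11a2, -0.04 to 0.80 for Col13a1, -0.48 to 0.09 for Col15a1, -0.08 to 0.61 for Col19a1, -0.41 to 0.16 for Col22a1 and -0.40 to 0.29 for Col23a1. With the mean over probe sets Col4a6 was 0.60, Col8a1 0.03, Col9a3 0.02 and Col23a1 0.46. Apart from fewer samples or genes tested, the cause of these shifts was not tested.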
